A study of Arabidopsis thaliana with 3 samples.

Results

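The regions described here are the BDH1-FLAG peaks that lay outside genes and away from gene ends in Arabidopsis thaliana inflorescences, called intergenic peaks below. A peak was taken from the list of replicate 1 when it overlapped a peak of replicate 2 by 1 bp or more and when its summit, the position of highest enrichment, lay outside every annotated gene and more than 500 bp from each. This rule gave 565 regions, or 4.01% of the 14093 peaks found in both lists and 3.39% of the 16653 peaks of replicate 1. They were compared with the 13528 other peaks in both lists, of which 11859 had a summit no more than 500 bp from the end of a gene, on either side of it, and 1669 had one deeper in a gene. Anti-FLAG chromatin immunoprecipitation with sequencing was made from inflorescences of plants that carried BDH1-FLAG in the bdh1-1 mutant background, in 2 replicates with 1 peak list each. Plants were grown on soil in long days. A wild-type sample without the tagged protein belongs to the study, but its values were not analysed here. The promoter that drove the transgene and the number of lines were not given in the sources used here. Peak lists hold no expression values, so the tissue label was not checked against marker genes.

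BDH1 is a BCL-domain homolog protein that the study places with the SWI/SNF complex. SWI/SNF complexes use ATP to slide or evict nucleosomes, and so change how well transcription factors and polymerase reach DNA. In the compact Arabidopsis genome most genes have close neighbours, and genes that control development often have longer stretches of intergenic DNA, some of which are known to hold regulatory elements far from the transcribed region.

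Every value of peak height below is the authors' fold enrichment, a linear ratio from their peak caller, or the −log10 of their q-value. Both were used only to describe and rank peaks within a list. The lists form 1 group without a control list, and peaks of 1 list are not replicates, so no test was made and differences between kinds of peaks were set beside the difference between the replicates. Nothing in the labels says whether the replicates came from separate plants, so their spread may be technical. Read depth behind the lists was unknown. Intervals given for percentages are exact 95% binomial intervals and cover counting error alone.

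Intergenic peaks were low. Their median fold enrichment was 2.08 in replicate 1 and 1.98 in replicate 2, a mean of 2.03 ± 0.0694 (SD, n = 2), against 2.35 in each list for the other peaks in both lists (SD 0.000926, n = 2). The difference of the means was larger than the difference between the replicates. Seen by rank within a list, the median intergenic peak stood at percentile 33.8 in replicate 1 and at percentile 26.0 in replicate 2, where 100 is the highest. The median other peak stood at percentiles 58.2 and 59.8. A −log10 q of at least 5 in both lists was reached by 116 of the 565 intergenic peaks (20.5%, 95% interval 17.3% to 24.1%), against 57.9% of all peaks in both lists. A −log10 q of at least 10 in both was reached by 11 of them (1.95%), against 16.3%, and 19 (3.36%) were among the highest 25% of each list by fold enrichment, against 19.6%. Intergenic peaks were also narrower. Their median width was 419 bp in replicate 1 and 384 bp in replicate 2, against 502 and 539 bp for the other peaks.

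**Figure D1:**
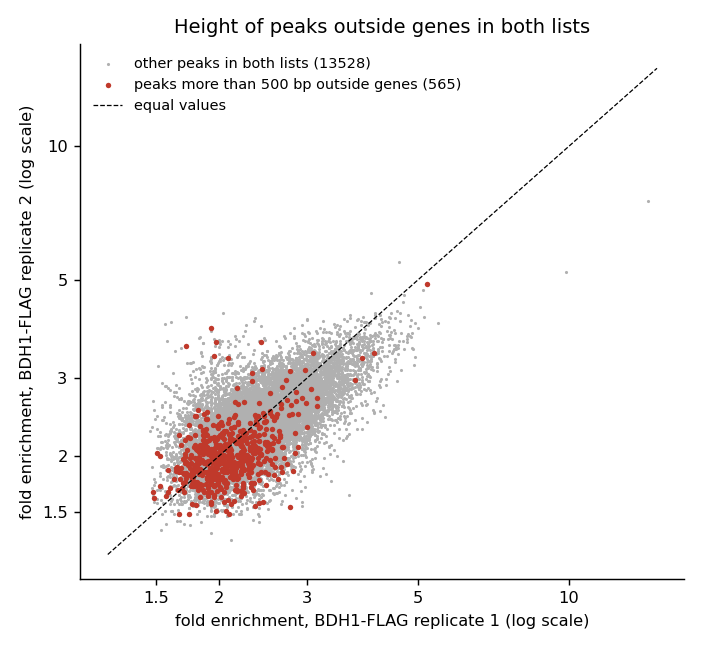
Fold enrichment of each peak in replicate 1 (x axis, log scale) and of its overlapping peak in replicate 2 (y axis, log scale), with 565 intergenic peaks in red and 13528 other peaks in both lists in grey. Most intergenic peaks sit at the low end of the cloud, with medians of 2.08 and 1.98, and 1 stands apart at 5.20 and 4.89.

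The order of heights among intergenic peaks matched less between the lists than among other peaks. Spearman's rank correlation of fold enrichment between the lists was 0.36 over the 565 intergenic peaks and 0.61 over the other 13528. These are correlations across regions of the same libraries, and the narrower range of the intergenic peaks enters them. In 10 of the 565 pairs the replicate 2 summit lay inside a gene, so some pairs set an intergenic height against one over a gene. The median distance between the summits of overlapping peaks was 100 bp for intergenic peaks and 70 bp for the others, and 50.1% and 63.6% of the pairs had summits within 100 bp of each other. The 565 regions met 539 different peaks of replicate 2, since neighbouring regions sometimes met the same wide peak, and 51 regions met more than 1 peak.

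The position in replicate 2 was not used to choose the regions. There the overlapping peak with the nearest summit also had that summit more than 500 bp outside genes in 510 of 565 cases (90.3%, 95% interval 87.5% to 92.6%). In 45 cases the summit was outside genes but closer, and in 10 it was inside a gene. Because the peaks overlap, their summits can rarely be far apart, so part of this match follows from the rule. For comparison, the class was the same in replicate 2 for 94.7% of the peaks near gene boundaries and for 64.2% of those deeper inside genes. Of the other 13528 peaks, 44 (0.325%) had a replicate 2 summit more than 500 bp outside genes. At the threshold itself, the 5 intergenic peaks nearest to it had summits 503 to 507 bp from a gene and fold enrichments of 1.58 to 2.47 in replicate 1, and the 5 nearest peaks on its other side had summits 497 to 500 bp from a gene and fold enrichments of 1.80 to 2.58.

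A smaller share of peaks in this position than of all peaks was found in both lists, and the lists differed in the size of that gap. By position alone, 1074 peaks of replicate 1 (6.45%) and 829 of replicate 2 (5.05%) had summits more than 500 bp outside genes. Of the 1074, 52.6% overlapped a peak of replicate 2 (95% interval 49.6% to 55.6%), against 84.6% of all peaks of replicate 1. Of the 829, 70.7% overlapped a peak of replicate 1 (95% interval 67.5% to 73.8%), against 86.7% of all peaks of replicate 2. The gaps were then compared at similar height, with each list divided into 5 equal groups by fold enrichment. Within a group neither exact height nor width was matched, and the part of width in sharing was not tested. In the lowest group of replicate 1, 36.1% of the peaks outside genes and 62.0% of all other peaks were shared, and in the third group 72.3% and 91.0%. In replicate 2 the corresponding shares were 60.3% and 66.4% in the lowest group and 87.2% and 91.0% in the third. In the highest group all 27 peaks outside genes of replicate 1 and all 17 of replicate 2 were shared. Of all other peaks in that group, 99.9% and 99.8% were shared, so the 2 kinds hardly differed there. The shortfall in the 3 lower groups was 25.8, 28.4 and 18.8 points in replicate 1 and 6.14, 7.24 and 3.82 points in replicate 2. In the fourth group it was 11.0 points in replicate 1 (87.4% against 98.3%). The order was reversed there in replicate 2, with all 44 peaks outside genes shared against 97.7% of all other peaks. In replicate 2 the intervals of both kinds of peaks overlapped in the lowest and the third group and did not overlap in the second.

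**Figure D2:**
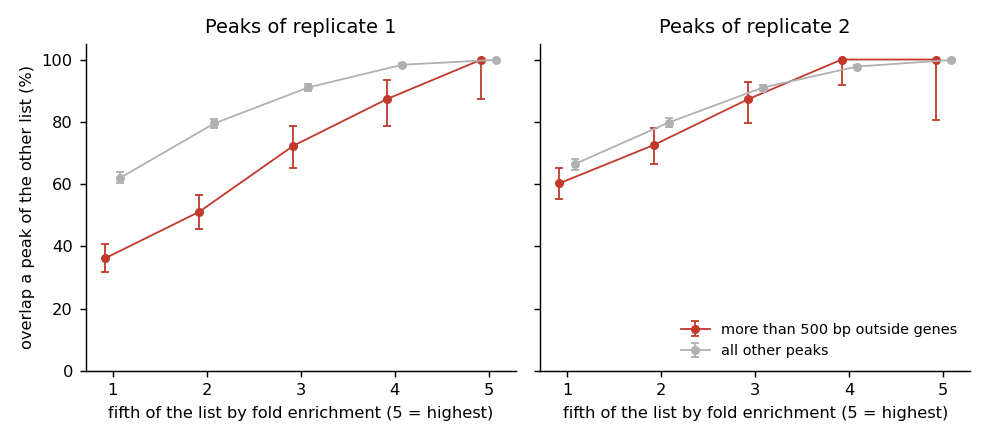
Share of peaks that overlap a peak of the other list (y axis, %) in 5 equal groups of each list by fold enrichment (x axis, 5 is the highest), for replicate 1 on the left and replicate 2 on the right. Points are percentages, bars exact 95% binomial intervals; peaks more than 500 bp outside genes (red) run below all other peaks (grey) in the 4 lower groups of replicate 1, and in the 3 lower groups of replicate 2 they lie closer to them.

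Intergenic peaks lay close to the threshold distance more often than far beyond it. The distance from summit to nearest gene had a median of 962 bp, quartiles of 700 and 1436 bp and a maximum of 5454 bp. More than 1 kb from every gene lay 263 of the peaks (46.5%), more than 2 kb 63 (11.2%), more than 3 kb 15 and more than 5 kb 5. To allow for how little sequence lies far from genes, peaks were counted per Mb of sequence at each distance. Sequence more than 500 bp from every gene made up 22.5 Mb, or 18.9% of the chromosomes, and held 25.1 intergenic peaks per Mb, against 140 other peaks per Mb in the remaining 96.6 Mb. Between 500 and 1000 bp from genes there were 32.1 peaks per Mb, between 1000 and 1500 bp 26.7, between 1500 and 2000 bp 22.8, and between 2 and 3 kb 17.9. Beyond 3 kb the numbers were small, with 6 peaks (6.01 per Mb) up to 4 kb and 9 peaks (5.92 per Mb) farther out. Height did not follow this order. The median fold enrichment was 2.08 and 1.99 in the 2 lists for the 302 peaks up to 1 kb from genes, 2.06 and 1.97 for the 200 between 1 and 2 kb, and 2.10 and 2.06 for the 63 beyond 2 kb.

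Along the chromosomes, intergenic peaks were denser in gene-rich regions. When bins of 100 kb were put into 5 groups by their number of protein-coding genes, the group with fewest genes held 16 intergenic peaks in 7.83 Mb of sequence far from genes, or 2.04 per Mb. The following groups held 21.3, 38.8, 43.2 and, in the group with most genes, 62.8 per Mb. The other peaks, counted per Mb of the remaining sequence, ran in the same order from 28.1 to 190 per Mb. The chromosomes differed little, from 23.2 intergenic peaks per Mb on chromosome 2 to 26.3 on chromosome 1.

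**Figure D3:**
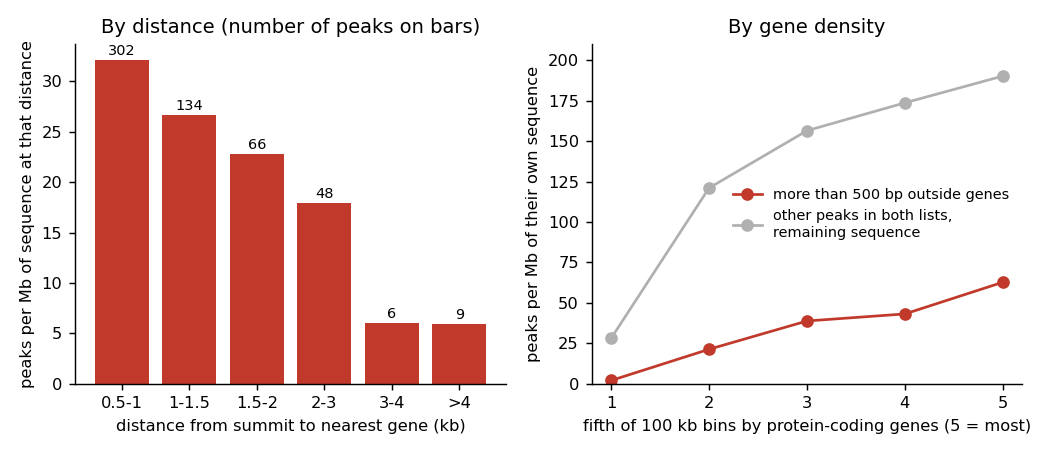
Left, intergenic peaks per Mb of sequence at each distance from the nearest gene (bars, with the number of peaks above), which go from 32.1 per Mb at 0.5 to 1 kb to 5.92 per Mb beyond 4 kb. Right, intergenic peaks per Mb of sequence more than 500 bp from genes (red, 2.04 to 62.8) and other peaks in both lists per Mb of the remaining sequence (grey, 28.1 to 190) in 5 groups of 100 kb bins by number of protein-coding genes.

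The nearest gene was protein-coding for 471 of the 565 peaks (83.4%, 95% interval 80.0% to 86.3%). Positions taken every 50 bp through the sequence more than 500 bp from genes had a protein-coding gene nearest in 64.6% of cases. Pseudogenes, a type under which transposon-derived loci are often annotated, showed the opposite: they were nearest to 22.7% of such positions but to 11 of the peaks (1.95%). Long non-coding RNA genes were nearest to 53 peaks (9.38%, against 6.49% of positions) and tRNA genes to 11 (1.95%, against 0.66%). The positions were not matched to the peaks by gene density. The bins with fewest genes held 7.83 of the 22.5 Mb from which positions came, but 16 of the peaks. Whether the shares of gene types differ at equal gene density was not tested. The 6 peaks nearest to miscellaneous RNA genes, 2 nearest to snoRNA genes (AT3G13525 and AT5G02575), 2 nearest to other non-coding RNA genes (AT1G26558 and AT3G06125) and 1 nearest to a transcribed pseudogene (AT1G19810) were few. MicroRNA genes were nearest to 8 peaks (1.42%, against 0.845% of positions). These included MIR172b, whose product represses AP2-like floral genes, with a summit 786 bp away and fold enrichments of 2.15 and 1.82. They also included MIR164b, whose product targets NAC genes of organ boundaries, with a summit 1328 bp away and fold enrichments of 1.75 and 1.92, and MIR167a, whose product targets auxin response factors, with a summit 1352 bp away and fold enrichments of 2.13 and 1.84. The others were MIR393b, MIR405a, MIR8166, MIR858a and MIR867. All 8 had fold enrichments between 1.70 and 2.46 in both lists.

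**Figure D4:**
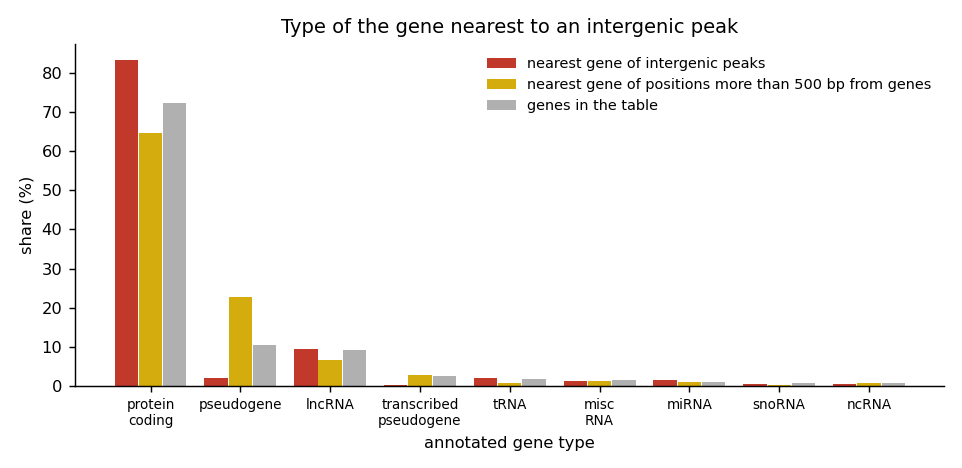
Share (y axis, %) of each annotated gene type (x axis) as nearest gene of the 565 intergenic peaks (red), as nearest gene of positions more than 500 bp from genes (yellow), and among all genes of the table (grey); types with fewer than 200 genes are left out. Protein-coding genes make up 83.4%, 64.6% and 72.4%, and pseudogenes 1.95%, 22.7% and 10.3%.

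Genes beside intergenic peaks often carried a peak of their own. For 400 of the 565 peaks (70.8%, 95% interval 66.9% to 74.5%) the nearest gene was overlapped by a replicate 1 peak other than an intergenic peak and by any replicate 2 peak. For 506 (89.6%) this held for at least 1 of the genes on either side. Seen from the genes, 769 protein-coding genes flanked an intergenic peak, and 557 of them (72.4%, 95% interval 69.1% to 75.6%) met the same condition. Among the 13619 protein-coding genes beside an intergenic gap of the same kind without an intergenic peak, the share was 38.5%, and over all protein-coding genes it was 45.4%. The share was 56.2% for the nearest genes of the 16 peaks in the bins with fewest genes and 76.2% for those of the 147 peaks in the bins with most. In replicate 1 all but 7 intergenic peaks ended before reaching any gene, so in that list the peaks over genes were separate intervals. This did not always hold in replicate 2, where the overlapping peak had its summit inside a gene in 10 cases. Such a replicate 2 peak could itself count as the peak over the gene. The nearest other shared summit lay at a median of 1268 bp from an intergenic summit and 2696 bp from the summit of another peak.

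The peaks were spread over many gaps between genes. The genome held 13129 gaps with sequence more than 500 bp from genes, and 470 of them (3.58%) held the 565 peaks. Of gaps of 1001 to 2000 bp, 1.46% held a peak, of gaps of 2001 to 3000 bp 4.01%, of gaps of 3001 to 5000 bp 6.52%, and of gaps of 5001 to 10000 bp 7.86%. Of the 145 longer gaps, 10 (6.90%) held a peak. Most occupied gaps held 1 peak (395 gaps), 60 held 2, and 15 held 3 or more. The most crowded held 5 peaks, between CKI1 (AT2G47430), a histidine kinase of female gametophyte development, and AT2G47440. It was 5483 bp long, and its peaks had fold enrichments of 1.87 to 2.38 in replicate 1 and 2.06 to 2.22 in replicate 2. Gaps with 4 peaks lay between BLH1 (AT2G35940), a BEL1-like homeodomain gene, and EDA12 (AT2G35950), between ERCC1 (AT3G05210), a DNA repair gene, and AT3G05220, and between LNG1 (AT5G15580), a gene of longitudinal cell growth, and SP1L4 (AT5G15600). Neighbouring peaks of 1 gap are not independent, and the 4 at LNG1 met 2 peaks of replicate 2.

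The intergenic peak with the highest fold enrichment spanned positions 9738866 to 9740639 of chromosome 3 (replicate 1 interval, TAIR10), between the pseudogene AT3G26530 and the miscellaneous RNA gene AT3G00450. Its fold enrichment was 5.20 in replicate 1 and 4.89 in replicate 2, rank 4 in both lists, and its −log10 q was 46.3 and 36.8. Its summit was 2912 bp from the nearest gene. Neither flanking gene had another peak in both lists, and the next shared summit lay 13705 bp away, so this peak stood alone. The next 3 by mean rank were less high in replicate 2 than in replicate 1. The peak at positions 18692407 to 18692991 of chromosome 1, 942 bp from HKL1 (AT1G50460), a hexokinase-like gene, had fold enrichments of 4.08 and 3.42. That at positions 24743683 to 24744478 of chromosome 1, 1370 bp from the long non-coding RNA gene AT1G08843, had 3.86 and 3.34. That at positions 12559445 to 12559988 of chromosome 3, between the pseudogene AT3G30834 and the long non-coding RNA gene AT3G06115, had 3.73 and 2.97 and was 108850 bp from the next shared summit. In ranks 5 and 6 came a peak between AT3G27210 and AT3G27220, with fold enrichments of 3.08 and 3.41 and a replicate 2 summit only 243 bp from a gene, and the best ranked peak of chromosome 2, between AT2G14510 and AT2G14520, with 2.98 and 3.13.

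Of the other peaks among the 12 best ranked, the one at positions 9737511 to 9738870 of chromosome 4, the best ranked of that chromosome, lay 1090 bp from HAT1 (AT4G17460), a homeodomain-leucine zipper gene, with fold enrichments of 3.06 and 2.84. STP1 (AT1G11260), a monosaccharide transporter gene, was 2498 bp from a peak with 2.77 and 3.11. ETT (AT2G33860), an auxin response factor gene of gynoecium patterning, was 2074 bp from a peak with 3.15 and 2.71, whose summit was at position 14331052 of chromosome 2 in both lists. AG flanked a peak described with the floral genes. SPT (AT4G36930), a bHLH gene of carpel development, flanked a peak that had fold enrichments of 2.93 and 2.70 and had its summit 5084 bp from SPT and 4549 bp from AT4G36925 on its other side. The best ranked peak of chromosome 5, at positions 24907009 to 24909405, lay between AT5G09035 and AT5G61997 with fold enrichments of 2.73 and 2.97, and reached 2 genes.

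The 5 peaks farthest from genes had summits 5040 to 5454 bp away and fold enrichments of 1.85 to 2.64 in replicate 1 and 1.96 to 2.28 in replicate 2. They lay beside SUC1 (AT1G71880), a sucrose transporter gene, between HPT1 (AT2G18950), a gene of vitamin E synthesis, and HA1 (AT2G18960), a plasma membrane proton pump gene, between AT4G05465 and AT4G05485, between BLH1 and EDA12, and between AT1G19835 and AT1G19840. In all 5 the summits of the replicates were within 48 bp of each other. The 5 widest peaks, chosen by their width in replicate 1, spanned 1984 to 2404 bp there. They lay beside MYBR1 (AT5G67300), AT5G61997, SOC1, AT3G51950 and BRG3 (AT3G12920). Each met 2 or 3 peaks of replicate 2, and the one with the nearest summit spanned 437 to 1538 bp, so these widths are not like for like.

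Regulators of flowers and meristems were then looked up as flanking genes. Their list was drawn up with earlier results of these data known, so it was not independent of the peaks. Of 54 genes listed, 45 lay beside a gap with sequence more than 500 bp from genes, and 14 of these (31.1%) flanked an intergenic peak, against 5.34% of the 14388 protein-coding genes in that position. The 14 were AP1, AP2, AG, SOC1, FUL, CUC3, SPL4, KAN1, PHB, PHV, ANT, FD, BEL1 and RPL. Of these, 8 were the nearest gene of a peak, and for AP1, SOC1, CUC3, KAN1, ANT and FD another gene was closer. All but CUC3 and FD also had a peak of their own in both lists. Among all 769 flanking protein-coding genes, 426 were the nearest gene of a peak and 557 (72.4%) had a peak of their own. Gaps beside listed genes were longer, with a median longest gap of 3783 bp against 2148 bp. Among genes whose longest gap was 3001 to 5000 bp, 10 of 18 listed genes flanked an intergenic peak. The value was 8.33% for 2892 protein-coding genes not matched by name to the transcription factor families given below. Genes not matched included listed genes such as AG and AP2. For gaps of 5001 to 10000 bp the values were 4 of 13 and 10.6%. For shorter gaps they were 0 of 9 and 5.74% (2001 to 3000 bp) and 0 of 5 and 2.15% (1001 to 2000 bp). When peaks had to reach a −log10 q of 5 in each list, the 14 genes became 5, and with overlap over 50% of both intervals they became 9. All intergenic peaks fell from 565 to 120 and to 353 at these settings. The share over all protein-coding genes was not counted there. A peak in both lists over the gene itself was found at 29 of the 54 (53.7%, against 45.4% of all protein-coding genes).

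Among floral organ identity genes, AG (AT4G18960), the C-class gene of stamens and carpels, lay 1619 bp from a peak at positions 10380865 to 10381618 of chromosome 4. Its fold enrichment was 2.85 in replicate 1 and 2.80 in replicate 2, its −log10 q 12.4 and 11.8, and the summits were 8 bp apart. AP2 (AT4G36920), a repressor of AG in the outer flower, lay 1698 bp from a peak at positions 17397266 to 17399138 of chromosome 4. This peak had fold enrichments of 2.87 and 2.49 and −log10 q values of 12.3 and 7.89, and in replicate 2 its interval was split. AP1 (AT1G69120), a gene of floral meristem and sepal identity, lay 2674 bp from a lower peak with fold enrichments of 1.89 and 2.16, whose nearest gene was the tRNA gene AT1G69130. Each of these 3 genes also had a peak of its own in both lists.

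Genes of the floral transition included SOC1 (AT2G45660), a MADS-box integrator of flowering signals. It lay 2039 bp from a peak at positions 18812520 to 18814752 of chromosome 2 with fold enrichments of 2.86 and 2.67 and −log10 q values of 12.9 and 9.38. In replicate 1 this peak also reached 2 genes on its other side, the long non-coding RNA gene AT2G09655 and AT2G45670. FUL (AT5G60910), a MADS-box gene of the inflorescence meristem and fruit, lay 2354 bp from a peak at positions 24508260 to 24508781 of chromosome 5. Its fold enrichment was 2.53 and 2.78, its −log10 q 8.32 and 10.6, and the summits were 16 bp apart. SPL4 (AT1G53160), a gene of the age pathway, lay 1084 bp from a peak with 2.11 and 2.06, and FD (AT4G35900), the bZIP partner of the flowering signal FT, lay 2397 bp from a peak with 1.93 and 1.88. The peaks at SOC1 and FUL were high in both lists among intergenic peaks, and those at SPL4 and FD were near or under the median.

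**Figure D5:**
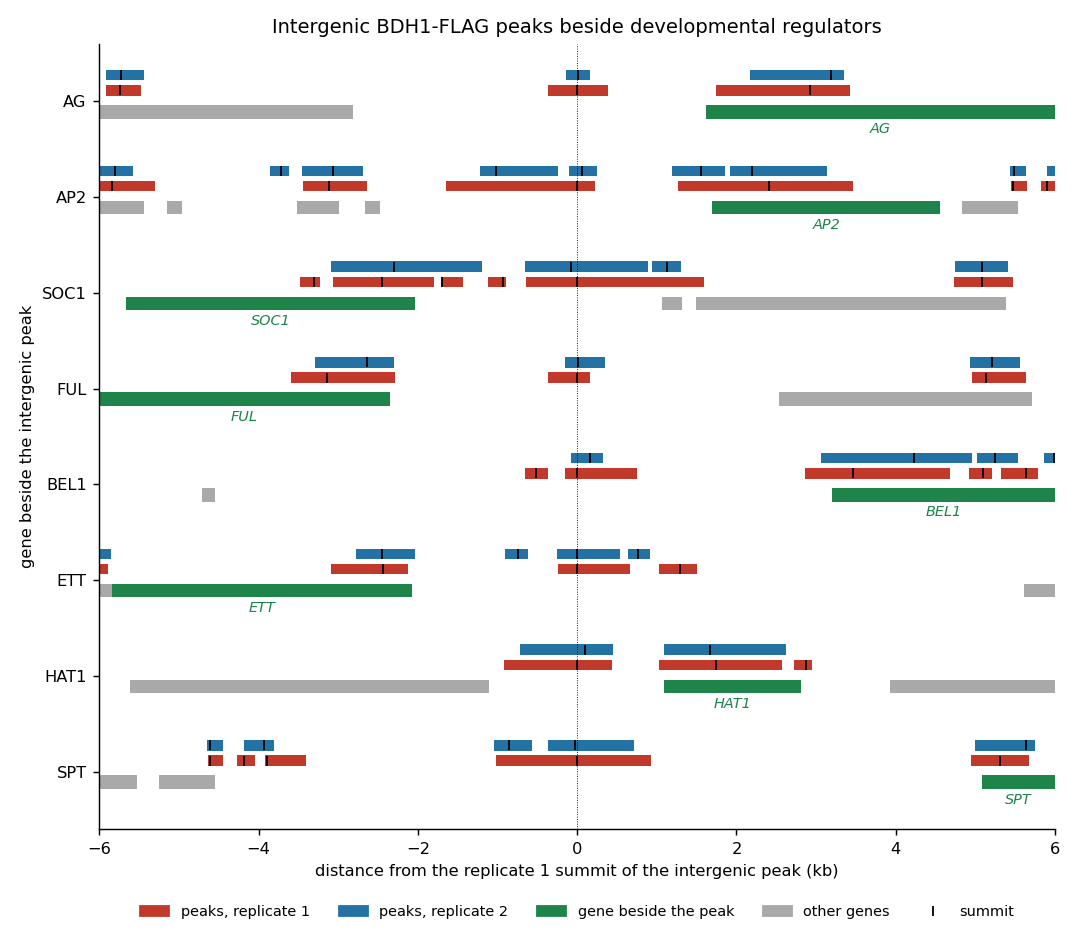
Peaks of replicate 1 (red) and replicate 2 (blue) and annotated genes (green and grey) within 6 kb of the replicate 1 summit of 8 intergenic peaks, one beside each gene named on the left (x axis, distance in kb; black ticks, summits). At all 8 genes the intergenic peak of both lists is separate from peaks that overlap the gene itself; the gene table gives no strand, so neither end of a gene is marked as its start.

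Of the genes of meristem and organ patterning, RPL (AT5G02030), a BEL1-like homeodomain gene of stem and fruit, had an intergenic peak 832 bp away with a fold enrichment of 2.38 in replicate 2 and slightly less in replicate 1, and a second, lower one 4831 bp away with 1.82 and 1.68. BEL1 (AT5G41410), a homeodomain gene of ovule integuments, lay 3204 bp from a peak that differed between the lists, with fold enrichments of 2.78 and 1.53 and −log10 q values of 11.0 and 1.49. PHB (AT2G34710) and PHV (AT1G30490), class III homeodomain-leucine zipper genes of the upper side of organs, lay 849 and 1084 bp from peaks. The PHB peak again differed between the lists, with 2.36 and 1.54, and the PHV peak had 2.21 and 2.11. KAN1 (AT5G16560), a gene of the lower side of organs, was 8248 bp from a peak with 2.00 and 2.11 that was much closer to GLN1;4 on its other side. ANT (AT4G37750), an AP2-type gene of organ growth, was 3889 bp from a peak with 1.71 and 1.83, and CUC3 (AT1G76420), a NAC gene of organ boundaries, was 3396 bp from one with 1.96 and 1.72. The peaks of AG, AP2, SOC1 and FUL and the nearer RPL peak were the ones that reached a −log10 q of at least 5 in both lists.

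Transcription factor genes as a wider set, matched by family names in the gene table and chosen with these peaks in view, flanked intergenic peaks in 60 of 561 cases (10.7%). Among the protein-coding genes beside such gaps that were not matched, 709 of 13827 (5.13%) did so. The match by name missed some genes of these families, such as SPT, ETT, BEL1 and SPL11, which were counted among the 13827. At a longest gap of 3001 to 5000 bp the shares were 14.1% and 8.33%, and at 5001 to 10000 bp 20.7% and 10.6%. Differences between families were not tested, and most counts were small. Homeobox genes flanked a peak in 15 of 83 cases (18.1%), among them HB16, HB33, HB40, HB5, KNAT4 and BLH6, and WRKY genes in 7 of 62 (11.3%). MYB genes did so in 8 of 111 (7.21%) and NAC genes in 3 of 76 (3.95%). SPL genes, with 3 of 9 matched by name (SPL4, SPL8 and SPL14), and growth-regulating factor genes, with 2 of 6 (GRF4 and GRF5), were few. SPL11 (AT1G27360) was not matched and lay 598 bp from a peak with fold enrichments of 2.41 and 2.64. Matched by name, the counts were 3 of 18 for bHLH, 4 of 33 for bZIP, 2 of 23 for ERF, CBF and DREB, 2 of 22 for TCP, 3 of 19 for ARF and 4 of 27 for AUX/IAA genes. SPT and ETT are not in the bHLH and ARF counts, nor BEL1 in the homeobox count. Outside these families, cytochrome P450 genes flanked a peak in 3 of 153 cases (1.96%), and ribosomal genes of the RPL and RPS series in 0 of 9. Of the listed genes of SWI/SNF subunits, the complex to which the study assigns BDH1, 0 of the 9 beside such gaps flanked an intergenic peak. With 5.34% of all protein-coding genes in that position beside a peak, 9 genes are too few to show a lower share. The same holds for the 9 ribosomal genes. A peak over the gene itself was found at 40 of 46 of these ribosomal genes and at 21 of 23 SWI/SNF genes. Over all protein-coding genes the share was 45.4%, and over the transcription factor families together it was 40.1%.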

How the data were processed

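The authors deposited 1 narrowPeak list per BDH1-FLAG replicate, called separately, with an interval, a summit, a ratio of enrichment (fold), p and q as −log10 values, and a score, which was not used. Per the submitters' processing notes, Bowtie2 2.5.2, SAMtools, bedtools 2.31.1, MACS2 2.2.9.1 and the TAIR10 build were used; settings and the control behind the fold enrichment are not given in the sources used here. Genes came from a RefSeq table of TAIR10.1 with 37899 genes on chromosomes 1 to 5, without strand. Its fit was checked: 41.2% and 42.3% of summits lay within 250 bp of a protein-coding gene end, against 21.9% to 23.7% with ends moved by 2 to 10 kb. Coordinates are 1-based, from the lists.

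A gap was intergenic sequence between neighbouring genes with at least 1 base more than 500 bp from both, and a flanking gene was the last to end before or the first to start after a summit. Regions named were the 12 best by mean rank of fold enrichment, the best of each chromosome, the 5 farthest from genes, the 5 widest and the 5 on either side of the threshold. Genes of fixed lists, all 77 matched, were named as flanking genes. Regions and lists were chosen with earlier results of these data known. Crowded gaps and transcription factor families were named after their values were seen. The separate count of a further family is not reported here. Interval steps were tested on simulated data. Python 3.11.15, numpy 2.4.6, pandas 2.3.3 and scipy 1.17.1 were used. Motifs planned for counting were not counted, since no sequence was used here. Alternatives varied the distance, the genes, the overlap, the q-value threshold and the list.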

Additional observations from a re-analysis of the deposited data

How the results depend on the processing

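No paired analysis was possible because the replicates form 1 group. The 565 intergenic peaks became 263 beyond 1000 bp, 885 against protein-coding genes only, 353 with overlap over 50% of both intervals and 120 when both lists held only peaks of −log10 q ≥ 5 (116 when the overlapping peak with the nearest summit had to reach it); from 1 list alone they were 829 to 1074. Under the same settings peaks per Mb were 20.0, 22.8, 15.7 and 5.33, and 36.8 to 47.7 from 1 list, against 25.1; with both summits beyond 500 bp, an alternative chosen after seeing the data, they were 22.6. The share with a replicate 2 summit also outside was 85.1% at 250 bp and 93.5% with 50% overlap. Median fold enrichment was 2.36 at −log10 q ≥ 5 and 1.92 to 1.97 from 1 list. Median width was 428 bp against protein-coding genes only, 598 bp at −log10 q ≥ 5 and 320 to 330 bp from 1 list. The nearest gene was protein-coding in 86.7% at −log10 q ≥ 5, and 84.2% to 85.7% from 1 list. Floral and meristem genes beside a peak numbered 9 with 50% overlap and 5 at −log10 q ≥ 5, and 15 to 18 from 1 list. Stricter settings keep fewer peaks by construction; the cause of the other shifts was not tested. With protein-coding genes only, the type of the nearest gene is fixed. Read depth, and so the precision of each peak, was unknown.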
